A study of Mus musculus with 6 samples.

Results

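The genes described here are 8 long noncoding RNAs (lncRNAs) in mouse intestinal organoids treated with low-density lipoprotein (LDL). Of these, Gas5, Snhg1, Snhg3, Snhg8, Snhg12 and Zfas1 carry small nucleolar RNAs within their genes, and Malat1 and Neat1 are retained in the nucleus. They were chosen by gene symbol from 55416 genes, and all 8 were found by their Ensembl identifier in the GENCODE annotation. A mean of at least 10 normalized counts was reached by 7, which were tested among 18459 genes, and Snhg3 had no read in any library. Crypts of the duodenum and jejunum of 3 wild-type (WT) C57BL/6 mice were grown as organoids, which are cultures of intestinal epithelium in a gel. The organoids of each mouse received LDL at 50 μg/ml or, as the control, PBS for 5 days, so that each mouse gave 1 LDL-treated and 1 PBS-treated library. The age and sex of the mice are not given in the sources used here, and no organoid group carried a transgene or deletion by its label. The animal identifier of mouse 3 begins differently from those of mice 1 and 2, although its label is WT. The question was which of these lncRNAs differ between LDL- and PBS-treated organoids, and how they do so in each mouse.

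Small nucleolar RNAs guide the chemical modification of ribosomal and spliceosomal RNA. Many are cut out of the introns of a host transcript, and in the Snhg family the spliced exons remain as an lncRNA with little or no known coding role. Host RNAs such as Gas5 begin with a run of pyrimidines, as the mRNAs of ribosomal proteins do, and several are broken down by nonsense-mediated decay when they are translated, so their levels respond to growth signals and to translation. Malat1 is a very abundant RNA of nuclear speckles, bodies rich in splicing factors. Neat1 is the architectural RNA of paraspeckles, nuclear bodies that assemble on its long isoform. The genes of Neat1 and Malat1 are neighbours on chromosome 19.

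The first 30 bases at the most used annotated start are shown for the host RNAs for which at least 5 annotated transcripts share that start, because the start is where a host RNA can resemble ribosomal protein mRNAs. They were read 5′ to 3′ on the plus strand of GRCm39. Capitals mark the unbroken run of C and T that begins at the first base. The windows are chr1:160862736-160862765 for Gas5, chr2:166905142-166905171 for Zfas1, chr4:132035987-132036016 for Snhg12 and chr19:8700851-8700880 for Snhg1.
Gas5: CTTTCggagctgtgcggcattctgagcagg
Zfas1: CTTTCgttccggcggctcctagagcgtttg
Snhg12: CCTTTCTCgcttcatccgcggtccctgtct
Snhg1: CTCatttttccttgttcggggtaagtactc
The run was 5 bases in Gas5, 5 in Zfas1, 8 in Snhg12 and 3 in Snhg1. A start with C and a run of at least 4 was found in 6.37% of the 7474 tested genes with such a shared start. Among these, it was found in 15.6% of 64 ribosomal protein genes and in 0 of 16 further translation genes listed below. Most ribosomal protein mRNAs are known to begin with such a run, so annotated starts can miss the true first base, and a missing run says little about a gene.

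The small nucleolar RNAs inside the hosts bear on what could be measured. The annotation placed 29 of them within the 6 hosts, 10 in Gas5, 8 in Snhg1, 5 in Snhg12, 3 in Zfas1, 2 in Snhg3 and 1 in Snhg8. The 3 in Zfas1 are printed because 1 of them was the only embedded small RNA with a read. All 3 lie on the plus strand of chromosome 2, at chr2:166905393-166905485, chr2:166906918-166907006 and chr2:166907196-166907285, and capitals mark TGATGA (box C) and CTGA (box D), the elements that define box C/D small nucleolar RNAs.
Gm25878: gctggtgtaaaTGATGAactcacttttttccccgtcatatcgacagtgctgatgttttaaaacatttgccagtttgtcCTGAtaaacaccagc
Gm23201: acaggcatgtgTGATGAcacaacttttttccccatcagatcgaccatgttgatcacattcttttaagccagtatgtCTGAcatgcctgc
Snord12: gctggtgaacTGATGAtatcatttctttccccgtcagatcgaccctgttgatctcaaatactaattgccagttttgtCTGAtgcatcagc
In global alignments, Gm25878 and Snord12 were identical in 76% of columns, Gm23201 and Snord12 in 69.8%, and Gm25878 and Gm23201 in 63.5%. Of the 29 embedded RNAs, 27 lay wholly within bases that the annotation also gives as exon of the host, and 26 of these 27 had 0 reads in all 6 libraries. Gm23201 held 60, 94 and 99 reads in the LDL-treated libraries of mice 1, 2 and 3 and 74, 42 and 94 in the PBS-treated ones. The treatments overlapped for Gm23201 (log2 fold change 0.26, limma adjusted p = 0.567). A count of 0 in a gene whose bases belong to a second gene need not mean absence, since reads that fall on both can go uncounted. The embedded small RNAs are therefore not described further, and the values of the hosts are those of the bases that were counted for them.

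Per length, Malat1 was the highest of the members. Levels are given as RPKM, the reads per kilobase of merged exons scaled to the total of reads on genes, as mean ± SD of 3 libraries. Malat1 stood at 392 ± 126 with LDL and 304 ± 17.6 with PBS, and by normalized count, which takes no account of length, it ranked first among the lncRNAs in the table. Gas5 followed at 53.9 ± 7.51 and 63.5 ± 3.49. Neat1 stood at 21.4 ± 5.82 with LDL and 10.7 ± 0.714 with PBS. Snhg1 (20.1 ± 2.58 and 18.4 ± 2.08) and Snhg8 (18.0 ± 4.03 and 20.9 ± 1.68) were neighbours whose ranges overlapped within each treatment. Zfas1 stood at 11.6 ± 1.28 and 14.5 ± 0.478, and Snhg12 was the lowest at 8.34 ± 0.458 and 7.88 ± 0.792. The order depends on the length used: with the median transcript length in place of merged exons, Neat1 (639 ± 174 and 321 ± 21.4 RPKM) lay above Gas5 with LDL (336 ± 46.8) and below it with PBS (396 ± 21.8), and Zfas1 lay above Snhg1.

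Neat1 was the member that differed most between treatments. Its normalized counts were 15222, 8598 and 14179 in the LDL-treated organoids of mice 1, 2 and 3, and 6301, 6706 and 5623 in the PBS-treated ones. Every LDL-treated library lay above every PBS-treated one, as in 11.9% of all genes tested, and mouse 2 had the lowest LDL value and the highest PBS value. Within mice, Neat1 was 2.42-, 1.28- and 2.52-fold higher with LDL. Across mice, it was 1.98-fold higher with LDL (log2 fold change 0.99 ± 0.21 SE, 95% interval 0.50 to 1.47), and limma without a mouse term gave an adjusted p = 0.0672, above the threshold of 0.05. With the mouse as a block, which uses the pairing of the libraries, limma gave an adjusted p = 0.0098, and Neat1 passed both that threshold and the fold change of 1.5. The blocked call was lost without mouse 3, whose identifier differs (log2 fold change 0.82, adjusted p = 0.154).

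By the rule of an adjusted p under 0.05 and more than 1.5-fold, 0 of the 7 tested members were called higher and 0 lower by limma without the block, against 0.878% and 0.395% of all genes. At an unadjusted p under 0.05 and more than 1.5-fold, Neat1 alone was higher. With the block, 1 of 7 members (Neat1) was called higher and 0 lower, against 5.68% and 3.46% of all genes. DESeq2 without the block called Neat1 as well, with 4.17% of the genes it tested called higher, and edgeR did so only with the block. The median log2 fold change of the members was 0.12, beside -0.02 over all genes tested.

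**Figure D1:**
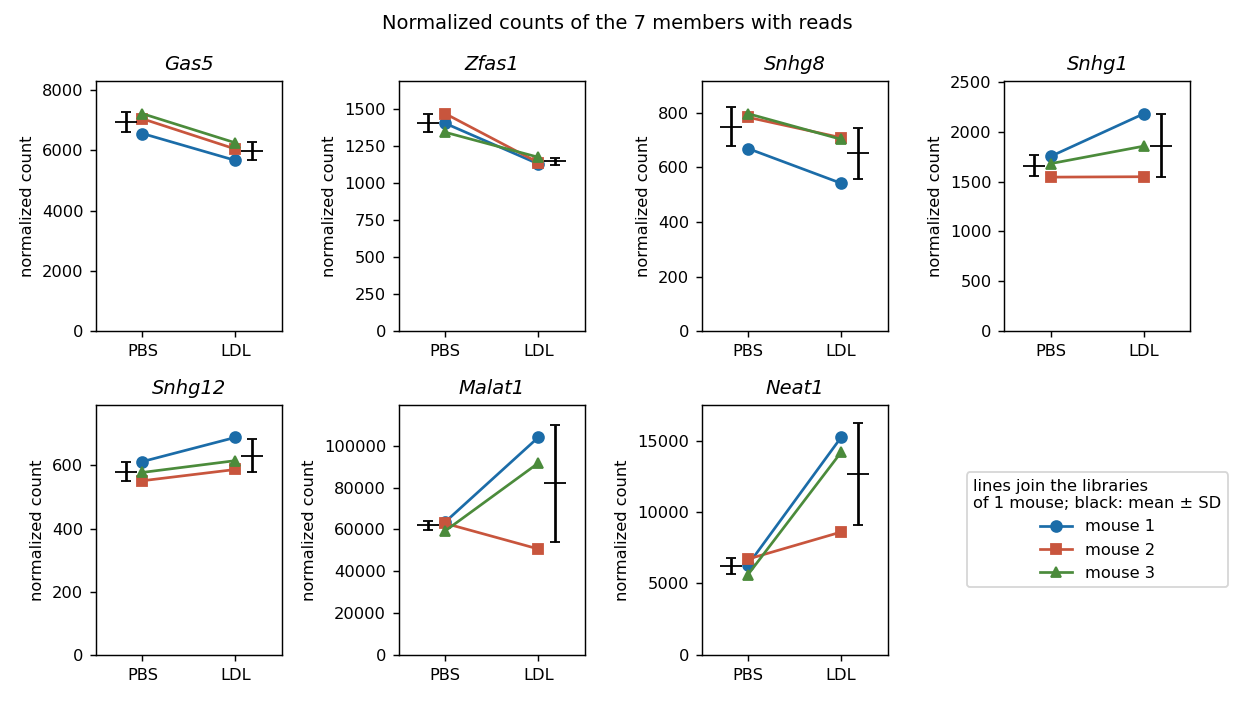
Normalized counts (linear axes from 0) of the 7 members with reads in PBS- and LDL-treated organoids. Coloured lines join the libraries of 1 mouse, and black bars give the mean ± SD of 3 libraries. Neat1 lay above all PBS-treated libraries with LDL in every mouse, Malat1 was lower with LDL in mouse 2 alone, and Gas5 and Zfas1 lay lower with LDL in every mouse.

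Malat1 was split by mouse. It held 104023, 50656 and 91727 normalized counts in the LDL-treated organoids and 63592, 62891 and 59300 in the PBS-treated ones, so that the treatments overlapped only through mouse 2. In mice 1 and 3, Malat1 was 1.64- and 1.55-fold higher with LDL, and in mouse 2 it stood at 0.805 of its PBS level. The counts were large enough that counting error was small, with a standard error of at most 0.0089 on the log2 scale within a mouse. Across mice, the log2 fold change was 0.34 ± 0.26 SE, with a 95% interval of -0.27 to 0.96, and the adjusted p of limma was 0.533 without the block and 0.322 with it. Once the library of mouse 2 with LDL was dropped, Malat1 was called higher (log2 fold change 0.66, adjusted p = 0.018) together with Neat1 (1.25, adjusted p = 0.000494), in a fit that called 6.39% of all genes higher.

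Mouse 2 stood apart in other values too. The summed level of 10 enterocyte markers was 61113 and 57769 normalized counts in its LDL- and PBS-treated libraries and 27092 to 31995 in the libraries of mice 1 and 3. All 10 markers passed the filter, and with the block 3 were called higher and 2 lower with LDL, among them Alpi (log2 fold change 2.13) and Lct (-1.80). Summed Paneth cell markers (8 of 8 with reads) ranged from 17193 to 21477 with LDL and from 25302 to 36690 with PBS. Summed goblet cell markers (8 of 8 with reads) ranged from 27166 to 32465 with LDL and from 44919 to 50215 with PBS. Single markers of both lists went both ways. With the block, 2 Paneth cell markers were called higher, Pla2g2a (log2 fold change 2.08) and Mmp7 (0.75), and 4 lower. Among goblet cell markers, Clca1 (2.81) was called higher and 3 were called lower with the block. Summed markers of intestinal epithelium (10 of 10 with reads) ranged from 103836 to 136144 with LDL, lowest in mouse 2, and from 92472 to 96900 with PBS. Among them the keratins Krt8 (log2 fold change 0.79), Krt18 (0.93) and Krt20 (0.91) were called higher with the block, and each was lowest in mouse 2 among the LDL-treated libraries, as Neat1 was. Summed crypt stem cell markers (8 of 8 with reads) overlapped, 37216 to 44077 with LDL and 40029 to 60844 with PBS, and with the block Ascl2 (1.22) and Tnfrsf19 (1.51) were called higher and Olfm4 (-1.17) and Smoc2 (-0.79) lower. In bulk organoids, a change in the number of cells of a type and a change of RNA per cell cannot be told apart, and the part of cell composition in the Neat1 and Malat1 values was not tested. Defining markers of other cells were near 0: Col1a1 (fibroblasts) held 2 to 8 reads, Cd3e (T cells) 1 to 6 and Ptprc (leukocytes) 2 to 10 per library. Only 3 of 11 stromal and endothelial markers and 4 of 10 immune markers had a mean of at least 10, with summed levels of 97.3 to 189 and 127 to 212 normalized counts, against 20049 or more for Epcam, an epithelial surface protein, in every library.

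Within a library, the ratio of Neat1 to Malat1 does not depend on how libraries are scaled. There were 0.146, 0.170 and 0.155 Neat1 reads per Malat1 read in the LDL-treated organoids of mice 1, 2 and 3, and 0.0991, 0.107 and 0.0948 in the PBS-treated ones. The LDL-treated libraries lay above the PBS-treated ones without overlap, and mouse 2 moved like the others in this ratio (1.48-, 1.59- and 1.63-fold higher within mice 1, 2 and 3). The ratio was 1.57-fold higher with LDL. An exact permutation test over libraries (two-sided, n = 3 against 3) gave p = 0.1, the smallest value it can give, and 0.2 after Benjamini-Hochberg adjustment over the 6 ratios computed.

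**Figure D2:**
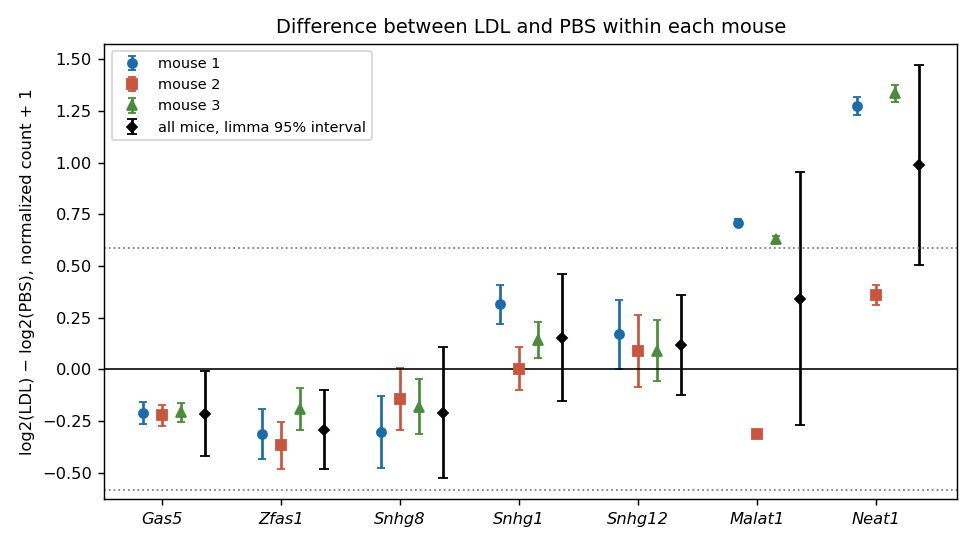
Difference between LDL and PBS on the log2 scale (normalized count + 1) within each mouse for the 7 members with reads. Coloured points carry 95% intervals of counting error, black diamonds give limma's estimate without the mouse block with its 95% interval, and dotted lines mark 1.5-fold. The 3 mice nearly coincide for Gas5 and are farthest apart for Malat1 and Neat1.

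Gas5, Zfas1 and Snhg8 were lower with LDL in every mouse, by less than 1.5-fold. Zfas1, a host whose name comes from the neighbouring gene Znfx1 on the opposite strand, held 1131, 1139 and 1176 normalized counts with LDL and 1405, 1470 and 1344 with PBS. The groups did not overlap, as in 12.3% of all genes in this direction. It stood at 0.817 of its PBS level (log2 fold change -0.29 ± 0.08 SE, 95% interval -0.48 to -0.10). Limma gave an adjusted p = 0.120 without the block and 0.0434 with it, so that Zfas1 passed the p threshold with the block, where 7.45% of all genes did so in this direction at any fold change. Zfas1 missed it in the blocked fit with TMM scaling (adjusted p = 0.0558), with upper-quartile scaling (0.0546), without mouse 1 (0.170) or without mouse 3 (0.243). It missed the fold threshold in both fits.

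Gas5, the most abundant of the hosts, held 5662, 6039 and 6245 normalized counts with LDL and 6555, 7043 and 7213 with PBS. The groups did not overlap, and the ratio within mice was almost the same in each, 0.864, 0.857 and 0.866. Its log2 fold change was -0.21 ± 0.09 SE, with a 95% interval of -0.42 to -0.01, and the adjusted p of limma was 0.241 without the block and 0.0946 with it.

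Snhg8 held 542, 708 and 702 normalized counts with LDL and 669, 783 and 796 with PBS. The groups overlapped, although each mouse was lower with LDL (0.810, 0.905 and 0.882 of its PBS level). The log2 fold change was -0.21 ± 0.14 SE, and the 95% interval of -0.53 to 0.11 included no change (adjusted p = 0.451 without the block and 0.144 with it). It was -0.08 when mouse 1 with LDL was dropped.

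The other hosts lay slightly higher with LDL. Snhg1 held 2181, 1549 and 1855 normalized counts with LDL and 1754, 1545 and 1680 with PBS, and its groups overlapped because mouse 2 hardly differed (1.003-fold, against 1.24- and 1.10-fold in mice 1 and 3). Its log2 fold change was 0.15 ± 0.13 SE (95% interval -0.15 to 0.46, limma adjusted p = 0.581). Dropping the library of mouse 1 with LDL moved it to 0.03, and dropping that of mouse 2 moved it to 0.28. Snhg12 held 689, 587 and 615 normalized counts with LDL and 612, 552 and 578 with PBS, which was 1.13-, 1.06- and 1.06-fold within mice. Its log2 fold change was 0.12 ± 0.10 SE (95% interval -0.13 to 0.36, limma adjusted p = 0.598), and 0.05 when mouse 1 with LDL was dropped. All the intervals of Snhg1 and Snhg12 lay within a log2 difference of 0.46, so a larger rise or fall across mice was outside them.

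In all, 3 of 7 members were higher with LDL in all 3 mice (Neat1, Snhg1 and Snhg12) and 3 of 7 were lower (Gas5, Zfas1 and Snhg8), beside 24.2% and 26.8% of all genes tested. The hosts thus did not share 1 direction, and their mean differences all stayed below 1.5-fold. Ratios of reads within a library set them against each other without any scaling. There were 2.60, 3.90 and 3.37 Gas5 reads per Snhg1 read with LDL and 3.74, 4.56 and 4.29 with PBS, lower in 3 of 3 mice (0.783-fold, exact permutation p = 0.2). There were 8.22, 10.3 and 10.1 Gas5 reads per Snhg12 read with LDL and 10.7, 12.8 and 12.5 with PBS (0.797-fold and lower in 3 of 3 mice, exact permutation p = 0.1). Zfas1 reads per Snhg1 read were 0.518, 0.736 and 0.634 with LDL and 0.801, 0.952 and 0.800 with PBS, without overlap (0.740-fold and lower in 3 of 3 mice, exact permutation p = 0.1). Each of these tests compares 3 libraries with 3, and their adjusted values over the 6 ratios were 0.2 to 0.3.

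Among members that moved the same way, ratios were computed for Zfas1 with Gas5 and for Snhg12 with Snhg1. Both ratios overlapped between treatments. Neat1 was not set against Snhg1 or Snhg12 in this way. Zfas1 reads per Gas5 read averaged 0.192 ± 0.00648 with LDL and 0.203 ± 0.0148 with PBS (exact permutation p = 0.4, n = 3 per group). Snhg12 reads per Snhg1 read averaged 0.342 ± 0.0330 and 0.350 ± 0.00665 (exact permutation p = 0.8, n = 3 per group). With 3 libraries per treatment, a small difference in these ratios could not have been detected.

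**Figure D3:**
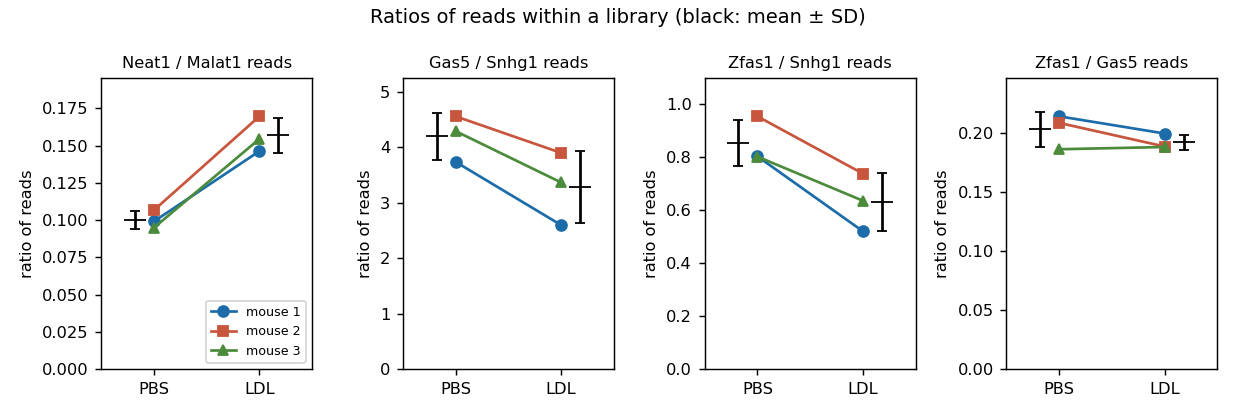
Ratios of reads between members within a library (linear axes from 0), with lines joining the libraries of 1 mouse and black bars for the mean ± SD of 3 libraries. Neat1 per Malat1 was higher with LDL in all 3 mice, Gas5 and Zfas1 per Snhg1 were lower in all 3, and Zfas1 per Gas5 overlapped between treatments.

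Snhg3 could not be measured. It had 0 reads in each library, a count that allows up to 3 reads by counting error alone. In the annotation, 633 of its 986 exon bases (64.2%) are shared with Rcc1, Snora73a or Snora73b on the same strand, and 705 (71.5%) with Gm17300 on the opposite strand. Rcc1, a chromatin-bound exchange factor for the GTPase Ran, held 1566, 1746 and 1823 normalized counts with LDL and 1513, 1400 and 1570 with PBS (log2 fold change 0.19, limma adjusted p = 0.313). Reads of Snhg3 and Rcc1 cannot be told apart on the shared bases.

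Smaller overlaps touch other members. On the opposite strand, 743 of 3494 exon bases of Snhg1 are shared with Slc3a2 and 196 of 3752 of Zfas1 with Znfx1, and Gas5 overlaps Zbtb37. Whether strand was used in counting is not given in the sources used here, so reads on those bases may have been lost or counted for either gene. Of 515 genes whose exons are wholly covered by genes on the opposite strand, 20.4% had a read, and of 1052 genes wholly covered on the same strand, 19.3% did. Slc3a2, a subunit of amino acid transporters, had a log2 fold change of -0.18 (limma adjusted p = 0.363), Zbtb37 of 0.15 (0.473), and Znfx1 of -0.01 (0.957). The overlap partners of Neat1 and Malat1 held few reads: Frmd8os had 1 to 3 per library, and Gm37376 had 0. All 453 exon bases of Gm37376 are shared with Malat1, so its count of 0 need not mean absence.

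Protein-coding genes next to the members were compared as well. Frmd8, 2598 bases from Neat1, differed by 0.19 on the log2 scale (limma adjusted p = 0.542, 0.273 with the block). Prss12, a secreted serine protease whose gene lies 794 bases from Snhg8, had 380 ± 131 normalized counts with LDL and 709 ± 104 with PBS, without overlap (log2 fold change -0.94, adjusted p = 0.0996, and 0.0041 with the block, where it was called lower). Chrm1, a muscarinic receptor gene 38041 bases from Snhg1, was low throughout (24.4 ± 6.74 and 51.8 ± 6.65) and was called lower only with the block (log2 fold change -1.08, adjusted p = 0.0204). Ddx27, an RNA helicase of ribosome assembly on one side of Zfas1, had a log2 fold change of 0.00 (0.993).

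Other Snhg-type hosts also went in both directions. A list of further host lncRNAs had 15 identifiers with reads, with a median log2 fold change of 0.08. Without the block, 0 were called higher and 0 lower by limma (at an unadjusted p under 0.05 and more than 1.5-fold, 0 and 1). With the block, 1 was called lower, Snhg18, with 74.7 ± 8.72 normalized counts with LDL and 116 ± 6.30 with PBS (log2 fold change -0.64, adjusted p = 0.0312). Under 1.5-fold, Snhg4 (log2 fold change 0.39, adjusted p = 0.0111) and Epb41l4aos (-0.34, 0.0491) passed the p threshold with the block. Snhg5, at 1950 ± 215 and 1734 ± 63.3 normalized counts, had a log2 fold change of 0.16 (0.217). Counting every lncRNA gene with a small nucleolar RNA inside, members left out, 28 of 80 passed the filter, with a median log2 fold change of 0.05 and 2 called lower with the block. Among 237 protein-coding hosts tested the median was 0.00, and 4 were called higher and 7 lower with the block.

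Translation genes whose mRNAs are known to begin with pyrimidines mostly had lower means with LDL. Of the hosts printed above with a run of at least 4 at the start, Gas5 and Zfas1 were lower in every mouse, whereas Snhg12, with the longest run, was higher in every mouse. Of 81 ribosomal protein genes tested, 79 had a lower mean with LDL and 76 were lower in all 3 mice, with a median log2 fold change of -0.50. By limma 0 were called without the block (9 at an unadjusted p under 0.05 and more than 1.5-fold) and 9 were called lower with it. At any fold, 66 were lower and 0 higher at an adjusted p under 0.05 with the block, beside 7.45% of all genes lower. Mouse 2 had the smallest median difference, -0.24 against -0.68 and -0.58 in mice 1 and 3. When the library of mouse 2 with LDL was left out, 64 were called lower without the block, in a fit that called 6.14% of all genes lower. In a list of 18 further translation genes of this kind, 16 had a lower mean with LDL, with a median of -0.36. Eef1b2, an exchange factor of translation elongation, was the only one called with the block (log2 fold change -0.63, adjusted p = 0.0060). At any fold, 9 of the 18 were lower and 1 higher at an adjusted p under 0.05 with the block. Beside these medians, the log2 difference of Gas5 was -0.22 in mouse 2 and -0.21 in both other mice, so that Gas5 did not show the spread between mice of the ribosomal protein median.

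Lists of factors that act on host RNAs held no called gene. Of 19 nonsense-mediated decay factors, 0 were called by limma in either fit, and the median log2 fold change was 0.04. At an unadjusted p under 0.05 without the block, 0 were higher and 3 lower at any fold: Pnrc2 (-0.49, adjusted p = 0.114), Upf3a (-0.27, 0.171) and Nbas (-0.26, 0.171). With the block, Pnrc2, a decapping cofactor, passed the p threshold below 1.5-fold (adjusted p = 0.0078, lower in 3 of 3 mice). Of 15 core and assembly proteins of small nucleolar ribonucleoproteins, 0 were called in either fit, and the median was 0.01. None of those 15 had an unadjusted p under 0.05 without the block, and Nolc1, a nucleolar chaperone, was closest, with a log2 fold change of 0.19 (adjusted p = 0.279). Of 16 proliferation genes, 0 were called in either fit, with 3 higher and 0 lower at an unadjusted p under 0.05 without the block, and the median was -0.03. Mcm3, a replication helicase subunit (log2 fold change 0.38, adjusted p = 0.0272), and Rrm2, a ribonucleotide reductase subunit (0.34, 0.0208), passed the p threshold with the block below 1.5-fold.

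The lists of paraspeckle and speckle genes held no called gene either. Of 17 paraspeckle proteins, 0 were called in either fit, and the median log2 fold change was -0.05. The lowest p among them was that of Rbmx, an RNA-binding protein, with 1829 ± 255 normalized counts with LDL and 2408 ± 176 with PBS (log2 fold change -0.40, adjusted p = 0.131 without the block and 0.0120 with it). Of 18 speckle and splicing genes, which include factors that process or bind the end of Malat1, 0 were called in either fit and 0 had an unadjusted p under 0.05, with a median of -0.05. Mettl16, which binds the triple helix at the end of Malat1, differed by 0.18 on the log2 scale (limma adjusted p = 0.350). Elac2, another gene of this list, differed by 0.17 (0.396).

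**Figure D4:**
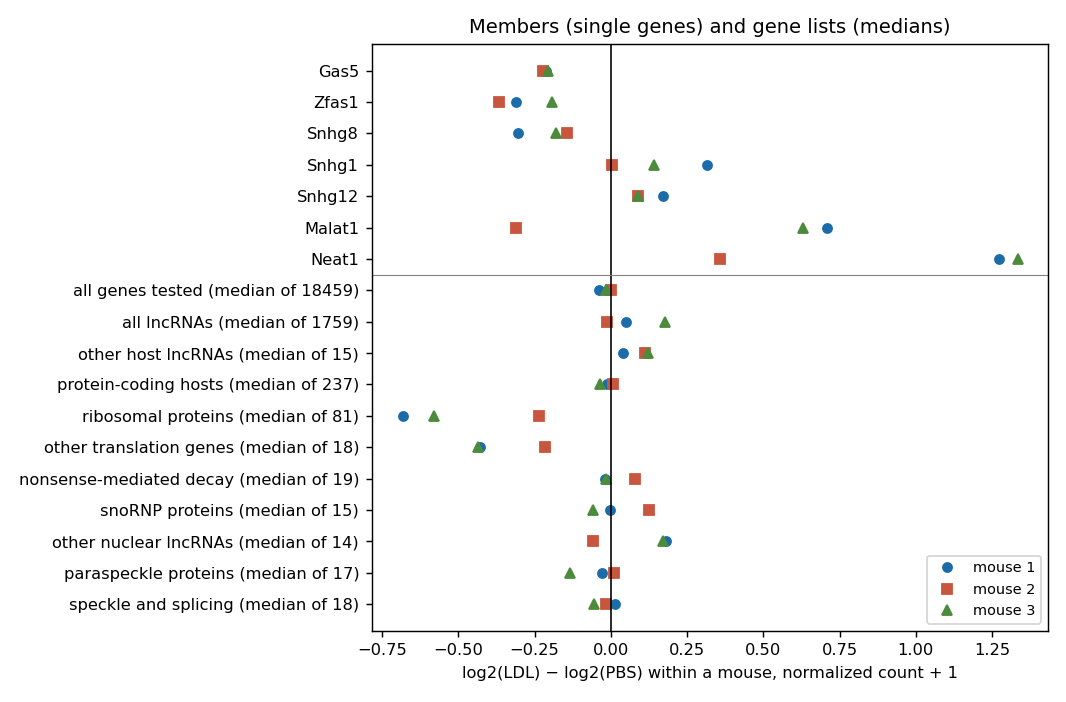
Difference between LDL and PBS on the log2 scale within each mouse, for each of the 7 members with reads (above the line) and as the median over the tested genes of each list (below it). The ribosomal protein and other translation genes lie left of 0 in all mice, and the medians of nonsense-mediated decay, small nucleolar ribonucleoprotein, paraspeckle and speckle genes lie within 0.14 of 0.

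Among other lncRNAs with a known nuclear pool, 14 of 18 passed the filter. Their median log2 fold change was 0.18, and limma called 0 without the block, with 1 higher and 0 lower at an unadjusted p under 0.05 and more than 1.5-fold. With the block 1 was called higher. This was Pvt1, an lncRNA next to Myc, with 210 ± 75.8 normalized counts with LDL and 106 ± 33.7 with PBS and 3 of 3 mice higher (log2 fold change 0.96, adjusted p = 0.161 without the block and 0.0051 with it). Below 1.5-fold, Firre (log2 fold change -0.39, adjusted p = 0.0144), Oip5os1 (-0.46, 0.0081) and Dleu2 (-0.29, 0.0373) passed the p threshold with the block. Kcnq1ot1, which silences imprinted genes, had 11530 ± 2865 and 9811 ± 2148 normalized counts (0.23, 0.213). Over all 1759 lncRNAs tested, 6 were called higher and 1 lower without the block, and 67 and 36 with it, around a median of 0.07.

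The genes whose pattern over the 6 libraries was most like that of a member were found by Pearson's r on log2 values, among 11932 genes with a mean of at least 100. The libraries come in pairs from 3 mice and share 2 treatments, so r is given as a description only. Those nearest to Neat1 (r of 0.994 to 0.995) were Ablim1, Ier3, Spns2, Slc25a24 and Abhd2. Ier3, an early-response gene, held 395, 152 and 347 normalized counts with LDL in mice 1, 2 and 3 and 66.4, 70.8 and 57.0 with PBS, again lowest in mouse 2 among the LDL-treated libraries. Slc25a24, a mitochondrial ATP-Mg/phosphate carrier, had 2852, 1332 and 2476 normalized counts with LDL and 896, 934 and 883 with PBS. Those nearest to Malat1 (0.987 to 0.993) were Gm43274, Baiap2, Tcim, Sema3c and Npc1, a lysosomal exporter of cholesterol, which held 917, 651 and 870 normalized counts with LDL and 745, 695 and 712 with PBS. Sema3c, a secreted guidance protein, was the most spread of them, with 2395, 522 and 1521 normalized counts with LDL and 766, 871 and 646 with PBS. Those nearest to the mean of the hosts (0.963 to 0.975) were Det1, Rfx5, Nr4a2, Klf4 and Slc39a13.

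Libraries held 22061545 to 31073360 reads on genes. The LDL-treated library of mouse 1 had the most genes with a read, 35781 against 29285 to 32751, and 7.62% of its reads on the ribosomal RNA gene Rn18s-rs5. Rn18s-rs5 held 1825783 reads there and 667024 in the PBS-treated library of mouse 2, against 22487 to 65499 in the other libraries. The LDL-treated library of mouse 1 had the highest normalized counts of Neat1, Malat1, Snhg1 and Snhg12. The part of these library traits in the members' values was not tested. Without the LDL-treated library of mouse 1, Neat1 had a log2 fold change of 0.83 and Malat1 of 0.14, where Malat1 with all libraries had 0.34.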

How the data were processed

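RNA-Seq was analyzed in 6 organoid libraries. Ribosomal RNA was depleted and libraries were made with a stranded kit. Per the labels and methods, reads were demultiplexed with bcl2fastq 2.20, aligned to GRCm39 with STAR and counted with featureCounts. The annotation and strand setting of the counting are not given in the sources used here. The deposited values (signal) are normalized counts, reads per gene divided by the authors with 1 size factor per library. Dividing by the value of 1 read gave whole numbers for 100% of the values (within 0.01). Names and positions came from GENCODE M39 on GRCm39, which held 54749 of the 55416 identifiers, and 12377 genes had no read.

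Normalized counts plus a pseudocount of 1 were taken to log2, keeping genes whose mean was 10 or more. Limma (trended eBayes, two-sided, no mouse term) tested LDL against PBS, with Benjamini-Hochberg adjustment over 18459 genes. A call needed more than 1.5-fold and an adjusted p-value under 0.05. Fold changes are on the log2(value + 1) scale, which understates those of low genes. An alternative fit had the mouse as a block. Replicate numbers pair the samples, because both libraries of a number carry the same animal identifier, and their deviations from the treatment means correlated (r = 0.48, 0.42 and 0.46). Other alternatives were pseudocounts, filters, scalings, each library left out, mouse 3 left out, and DESeq2 and edgeR on the recovered reads. The block with other scalings, without each mouse, and at any fold change were chosen after seeing the data. Ratios were compared with exact permutation tests. Scripts were tested on simulated data.

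Members and gene lists were chosen with earlier results of these data known, so no list was tested as a set, and list counts are descriptions. The text names all members, overlapping and neighbouring genes, embedded small RNAs, list genes called in either fit (or the smallest p), and the 5 genes most like Malat1, Neat1 and the host mean. Results for a few overlapping or neighbouring genes are not reported here. Some further list genes (those past the p threshold under 1.5-fold, Snhg5 and Kcnq1ot1) were named after their values were seen. The rule on shared transcript starts was also set after the annotation had been seen. Fits used limma 3.58.1, DESeq2 1.42.0 and edgeR 4.0.16 in R 4.3.3. Tables and figures used pandas 2.3.3 and matplotlib 3.10.9 in Python 3.11.15. Depth was 22061545 to 31073360 reads on genes, and intervals within a mouse cover counting error only.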

Additional observations from a re-analysis of the deposited data

How the results depend on the processing

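No member changed sign under any alternative. The number of members called higher was 0 by limma without the mouse block and 1 (Neat1) at an unadjusted p under 0.05, with no filter on the mean, with DESeq2, and with the replicate block in limma, DESeq2 and edgeR, and the block gave 1 with TMM scaling, with upper-quartile scaling and at any fold change. The number called lower was 0, and it was 1 (Zfas1) with the block at any fold change. Leaving out 1 library at a time gave 0 to 2 members called higher, with 2 (Malat1 and Neat1) without the LDL-treated library of mouse 2. With the block, leaving out mouse 1 gave 1, mouse 2 gave 2 and mouse 3 gave 0. The adjusted p of Neat1 ran from 1.1e-10 (block without mouse 2) to 0.724 (without both libraries of mouse 3), and its log2 fold change from 0.82 to 1.30. The log2 fold change of Malat1 ran from 0.14 to 0.67, of Gas5 from -0.25 to -0.17, of Zfas1 from -0.34 to -0.25, of Snhg1 from 0.03 to 0.28, of Snhg8 from -0.29 to -0.08 and of Snhg12 from 0.05 to 0.17. The median of the members ran from 0.03 to 0.17 when single libraries were left out. Over all fits (limma, DESeq2 and edgeR), the lowest adjusted p was 0.0431 for Gas5 and 0.0417 for Snhg1. Both passed the p threshold in at least 1 fit, and neither reached 1.5-fold in any. With the block, Zfas1 missed the p threshold with TMM (0.0558) and upper-quartile scaling (0.0546). Without the block, no pseudocount, stricter filter or scaling changed a call of a member. The cause of the changes was not tested. The block changed no other call of a member.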
